A study of Mus musculus with 13 samples.

Results

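Selectins are lectins that catch leukocytes on the vessel wall, and 9 of the 55536 genes in the deposited tables were taken as the selectin system: the selectins Selp and Sele, the ligand carriers Selplg, Cd44, Cd24a and Glg1, and the enzymes Fut4, Fut7 and Gcnt1. The genes were chosen by name, and Ensembl identifiers were matched to mouse symbols. They were read in poly(A)-selected RNA of bone marrow neutrophils freshly taken from WT mice, with 2 libraries from mock-treated cells (mock) and 2 from cells kept in HBSS with RNase A at 37 °C for 10 min (exRNaseA). The series calls these libraries biological replicates, but strain, age, sex and whether separate animals were used are not given in the sources used here, so p-values measure the spread between these 4 libraries. The question was whether digestion outside the cells changed messages inside them.

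Small RNA libraries, 1 per group, were also read at the 9 loci. They came from HOXB8 cells, a myeloid progenitor line that was grown in medium with SCF (100 ng/ml) and estradiol (1 µM), from HOXB8 cells differentiated without estradiol, and from WT bone marrow neutrophils (PMN). HOXB8 cells received 100 µM Ac4ManNAz, a sugar that cells turn into sialic acid with an azide handle, for 36 h, together with Gal at 10 µM and GalNAc at 100 µM. The same text stands in the neutrophil labels, so whether neutrophils were labelled cannot be told from them. RNA was read as gel-purified input under 300 nt (HOXB8, differentiated HOXB8, PMN), after streptavidin capture of biotin clicked onto the azide (Bio; both HOXB8 states), after capture on wheat germ agglutinin beads (WGA; HOXB8, differentiated HOXB8, PMN), or after biotin capture and PNGase F digestion (BioPNG; differentiated HOXB8 only).

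P-selectin (Selp) is stored in platelets and endothelium, and E-selectin (Sele) is made by endothelium. Both bind sialyl Lewis x, a sialylated and fucosylated sugar carried by proteins on the neutrophil surface. PSGL-1 (Selplg) is the main P-selectin ligand of neutrophils, and CD44 and ESL-1 (Glg1) are known E-selectin ligands. The fucosyltransferases Fut7 and Fut4 add the fucose of the sugar, and Gcnt1 builds the core 2 O-glycan branch on which it sits. Through these bonds neutrophils roll along the vessel wall before they arrest.

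The 4 libraries held between 20661683 and 23722494 expected counts. The labelled cell type was checked by its markers: all 10 neutrophil markers were above 1 TPM (a level scaled for transcript length and library size), and they summed to between 264637 and 277853 TPM, led by S100a9 and S100a8. In exRNaseA libraries 9 of these 10 had a negative log2 change (median -0.05) and 9 of 10 an unadjusted p under 0.05, beside 6.35% of all tested genes, but 0 were called (edgeR, lowest adjusted p = 0.288). Of the 12 erythroid markers 9 had a positive log2 change (median 0.04), 2 of 12 had an unadjusted p under 0.05 and 0 were called. The part of these shifts in the results below was not tested. Of markers of other cells, the 12 erythroid genes summed to between 4908 and 5147 TPM (Hbb-bs and Hba-a2 highest). The 11 B lineage genes summed to between 1907 and 1923 TPM (Ighm and Cd79a highest). The 10 monocyte and macrophage genes summed to between 1044 and 1063 TPM, but Ly6c2 alone had a mean of 965 TPM and Csf1r, the next, 31.2 TPM. The 10 T and NK cell genes summed to between 60.6 and 65.1 TPM (Trbc2 and Nkg7 highest). The 12 platelet and megakaryocyte genes summed to between 50.9 and 56.2 TPM and the 11 endothelial genes to between 2.68 and 4.42 TPM.

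The ligand carriers stood far above the fucosyltransferases in level. By mean TPM over the 4 libraries the order was Cd24a (1522), Cd44 (461), Selplg (269.9), Gcnt1 (51.5), Glg1 (31.3), Selp (28.7), Fut4 (4.79), Fut7 (3.65) and Sele (0.85). The ranges over the 4 libraries overlapped for Glg1 and Selp and for Fut4 and Fut7, so neither pair is ordered beyond its spread. The other 6 neighbouring pairs did not overlap, with steps in mean TPM of 1.64-fold (Gcnt1 over Glg1) to 5.995-fold (Selp over Fut4). The order was the same 9 ranks in TPM, in FPKM and in scaled counts per length. All of these divide the same counts by the same effective lengths, so their match was nearly fixed in advance and is no check of the order.

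**Figure D1:**
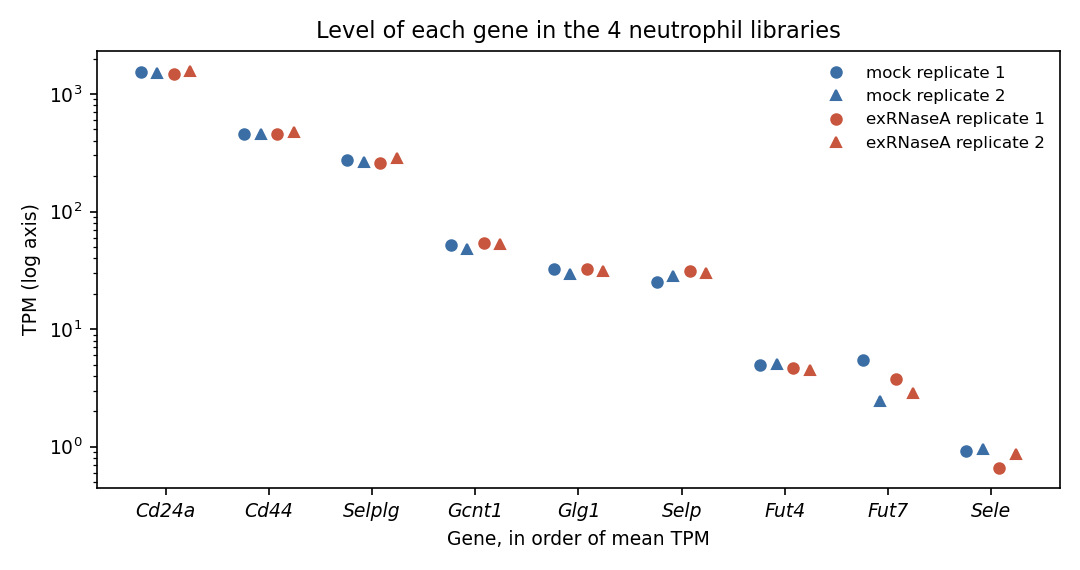
Level of the 9 genes in TPM (log axis) in each of the 2 mock and 2 exRNaseA neutrophil libraries, genes in order of mean TPM. Cd24a lies between 1478 and 1579 TPM and Sele between 0.66 and 0.96, and the 4 points of a gene lie close together except for Fut7, which spans 2.47 to 5.50.

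Of the 9 genes, 0 were called as changed with RNase A outside the cells. The quasi-likelihood test of edgeR, adjusted by Benjamini and Hochberg's method over all 14184 tested genes, called 13 genes, 0.0917% of them, so at that rate a count of 0 among 9 genes carries little information. All 9 genes passed the filter on low counts, 0 of them had an unadjusted p under 0.05, and DESeq2 also called 0. Their adjusted p lay between 0.862 and 0.999 (edgeR). The median log2 change of the 9 genes was -0.0014, beside -0.0003 for all tested genes.

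**Figure D2:**
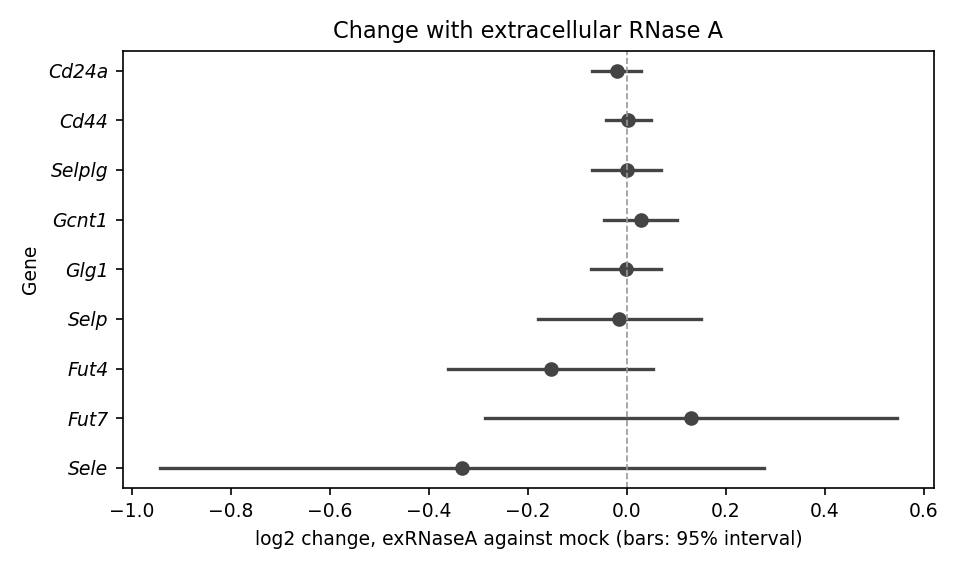
The log2 change of each gene in exRNaseA against mock libraries (points, edgeR) with its 95% interval (bars). All 9 intervals span 0, with the narrowest for Cd44 (-0.04 to 0.05) and the widest for Sele (-0.94 to 0.28), the gene with the fewest counts.

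Among the selectins, Selp was measured at a level near that of Glg1. Selp (ENSMUSG00000026580.16, chromosome 1, 164115264 to 164150026, RefSeq GRCm38.p6) had 493.0 and 470.7 expected counts in mock libraries and 443.2 and 503.2 after RNase A. Scaled to library size with TMM these were 20.9 and 22.8 CPM in mock and 21.3 and 21.9 CPM in exRNaseA libraries, and the groups overlapped. The log2 change was -0.02 (SE 0.08, 95% interval -0.18 to 0.15, adjusted p = 0.987, edgeR). In TPM the same gene stood at 25.02 and 28.3 in mock and at 31.3 and 30.2 in exRNaseA libraries. There the groups did not overlap, and limma on log2(TPM + 1) gave a log2 change of 0.20, with adjusted p = 0.837.

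The CPM and TPM of Selp part because the length that RSEM assigned to it differed. RSEM weighs the lengths of a gene's transcripts (5 for Selp) by their estimated use, and the effective length was 1175 and 1136 bases in mock and 974.8 and 1051 bases in exRNaseA libraries. The longest was 1.20 times the shortest. Of 9398 genes with more than 1 transcript and 50 or more counts in each library, 16.98% had a ratio at least as large, so a spread of this size was common. Selp also had fractional counts in every library, which means that RSEM split reads between it and another gene, and the level of Selp is uncertain to that extent. Beside it, the platelet markers Itgb3 and Pf4 had mean levels of 19.7 and 13.4 TPM, and Itga2b and Gp9 had between 1.75 and 3.99 TPM in each library. In bulk RNA, few cells with much Selp and many cells with little cannot be told apart.

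Sele was close to the limit of what these libraries could show. Sele (ENSMUSG00000026582.6, chromosome 1, 164039614 to 164058487) had 42 and 38 counts in mock libraries and 26 and 37 after RNase A, which is 1.78 and 1.84 CPM against 1.25 and 1.61 CPM. Both mock libraries were above both exRNaseA libraries, yet exRNaseA replicates differed by 0.36 on the log2 scale. That is more than the log2 change between groups of -0.33 (SE 0.29, 95% interval -0.94 to 0.28, adjusted p = 0.908, edgeR). Groups failed to overlap in CPM for 35.7% of all tested genes and for 2 of the 9 genes here, Sele and Fut4. In TPM the groups did not overlap for 36.1% of all tested genes and for 5 of the 9 (Selp, Sele, Cd44, Gcnt1 and Fut4). Endothelium, the cell type known to make E-selectin, had 11 markers listed: Egfl7 stood between 1.81 and 2.90 TPM, above Sele, and the other 10 had means under 1 TPM, Stab2 being the next highest at 0.42. Cdh5 had between 0.03 and 0.18 TPM, Kdr between 0.02 and 0.14 and Tek between 0.05 and 0.08 in each library, and Cldn5 and Ptprb had 0 counts in all 4 libraries.

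The carriers were measured most precisely. Selplg (ENSMUSG00000048163.13, chromosome 5, 113817798 to 113832528) had 272.8 and 263.8 TPM in mock and 259.9 and 282.9 TPM in exRNaseA libraries. The exRNaseA values lay on either side of both mock values. The log2 change was -0.00 with a 95% interval of -0.07 to 0.07, which leaves room for a change of -4.74% to 4.95% (adjusted p = 0.999, edgeR). Only 452 of the listed genes, 0.814% of them, had a higher mean TPM than Selplg.

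Cd44 (ENSMUSG00000005087.17, chromosome 2, 102811141 to 102901669), whose product also binds hyaluronan, had 1185 and 1185 CPM in mock and 1177 and 1198 CPM in exRNaseA libraries. The log2 change was 0.00 (95% interval -0.04 to 0.05, adjusted p = 0.992, edgeR). The gene has 9 annotated transcripts, and its effective length stayed between 3649 and 3685 bases, which is less than 1.01-fold between libraries. A mean length can stay the same while the use of single transcripts shifts, so the mix of Cd44 transcripts was not measured by it. The levels were 455.7 and 453.6 TPM in mock and 460.4 and 475.8 TPM in exRNaseA libraries, which do not overlap in TPM, while in CPM they did.

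Glg1 (ENSMUSG00000003316.14, chromosome 8, 111153284 to 111259210), a Golgi protein that can act as E-selectin ligand, had 32.4 and 29.4 TPM in mock and 32.2 and 31.4 TPM in exRNaseA libraries. The ranges overlapped, and the log2 change was -0.00 (95% interval -0.07 to 0.07, adjusted p = 0.997, edgeR).

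Cd24a (ENSMUSG00000047139.9, chromosome 10, 43579169 to 43584265) was the most abundant of the 9 messages. It encodes a small, heavily glycosylated surface protein that can carry P-selectin ligands, and it is also known on B lineage and erythroid cells. Its level was 1531 and 1501 TPM in mock and 1478 and 1579 TPM in exRNaseA libraries, so the exRNaseA values enclosed the mock values. The log2 change was -0.02 (SE 0.02, 95% interval -0.07 to 0.03, adjusted p = 0.936, edgeR). Only 49 of the listed genes had a higher mean TPM. The most abundant markers of the other cells that make it stood at 1411 TPM (Ighm, B lineage) and 1698 TPM (Hbb-bs, erythroid) on average, and their part in the level of Cd24a was not tested.

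Small RNA sequences were also placed inside Cd24a, and their summed reads were the largest at any of the 9 loci. Of 18385 sequences in the small RNA table, 5 were placed inside the 9 genes: 3 in Cd24a, 1 in Cd44 and 1 in Glg1. Of the listed sequences, 92.4% had 100 or more reads summed over the 9 libraries, and no rule for listing them is given in the sources used here. A sequence with nearly all its reads in 1 library reaches such a sum only through that library, so its low values in the others are not independent of its being listed. The 3 Cd24a sequences end on the same base and differ at their 5′ ends. A further sequence of 23 nt is contained in the 24 nt one but was placed on chromosome 14. They are printed 5′ to 3′ as the table gives them, with the 21 bases that all 4 share in capitals, because the shared end is what shows them to be nested.
Cd24a 21 nt (chr10:43583306-43583326, mm10, forward strand): TTGAACTCTGACTGTTCTCTT
Cd24a 24 nt (chr10:43583303-43583326, mm10, forward strand): ttgTTGAACTCTGACTGTTCTCTT
Cd24a 29 nt (chr10:43583298-43583326, mm10, forward strand): ccatgttgTTGAACTCTGACTGTTCTCTT
chr14 23 nt (chr14:119644772-119644794, mm10, forward strand): tgTTGAACTCTGACTGTTCTCTT

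The chromosome 14 position lies inside Hs6st3 and inside Gm6212, which RefSeq lists as a pseudogene. Since the 23 bases placed there are also part of the 24 bases placed in Cd24a, reads of this family match more than 1 place and their origin is uncertain. The position in Cd24a is given at the level of the gene, since exons were not used here.

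The reads of all 4 nested sequences lay almost wholly in the WGA-captured RNA of primary neutrophils, without which 3 of them would have had at most 1 read, so their values are given as a description. The 24 nt sequence stood at 328.1 RPM (reads scaled to the library's total, 3256 reads) in the PMN WGA library and at 1.61 RPM (5 reads) in the PMN input. The 21 nt and 29 nt sequences stood at 27.0 and 15.0 RPM (268 and 149 reads) after WGA and had 0 reads in the input, where 3 reads would be 0.965 RPM. The 23 nt sequence on chromosome 14 stood at 42.1 RPM (418 reads) after WGA and 0.322 RPM (1 read) in the input.

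In HOXB8 cells the same family was all but absent. The 3 Cd24a sequences together had 3 reads (0.801 RPM) in the HOXB8 input, 1 read (0.124 RPM) in the differentiated HOXB8 biotin library and 0 reads in the other 5 HOXB8 libraries. At 3 reads per library, the counts of 0 allow up to 0.351 RPM in the differentiated WGA library and up to 0.788 RPM in the differentiated input. In both WGA libraries of HOXB8 cells they were at 0, while 370.2 RPM was reached in the PMN WGA library.

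Summed over the 3 sequences, neutrophil WGA RNA held 230.3 times the input level (95% exact conditional interval 98.6 to 709.6, from 3673 and 5 reads). The 21 nt and 29 nt sequences add reads to the WGA side of this ratio only, which their being listed may fix. With 1 library per group this difference has no replicate check and no test. The intervals and floors cover at most the counting error of reads taken as independent. PCR copies could not be told from separate molecules, so the intervals may be too narrow. The labels state the size cut of under 300 nt for inputs only, so capture and size selection cannot be told apart. Of 406 genome-mapped sequences above 0 in both neutrophil libraries the median WGA to input ratio was 4.25, and 6 sequences had a higher ratio than the 204.1 of the 24 nt sequence.

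**Figure D3:**
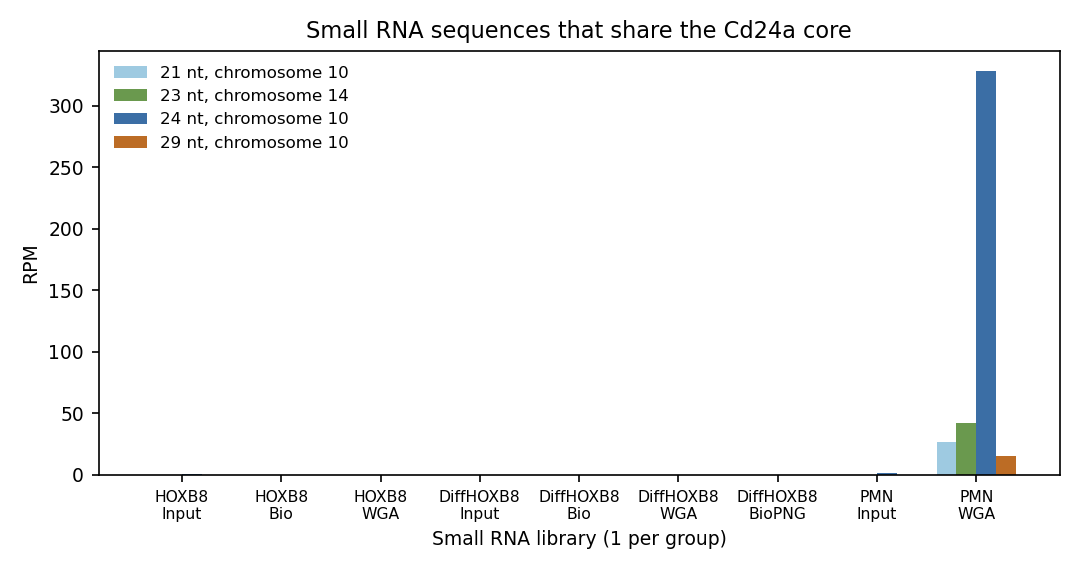
RPM of the 4 nested sequences (bars, by length and the chromosome on which they were placed) in each of the 9 small RNA libraries, 1 library per group. The bars rise to 328.1 RPM in the PMN WGA library and are at or near 0 in the other 8.

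The remaining hits were single sequences whose reads all lay in 1 library, so their 0 reads elsewhere are likewise a description. A 21 nt sequence in Cd44 (chr2:102878966-102878986, mm10, reverse strand) had 13.5 RPM (115 reads) in the differentiated HOXB8 WGA library and 0 reads in the other 8. A 16 nt sequence in Glg1 (chr8:111159817-111159832, mm10, reverse strand) had 18.7 RPM (103 reads) in the HOXB8 WGA library and 0 reads in the other 8. So short a sequence can match many places. For Selp, Sele, Selplg, Fut4, Fut7 and Gcnt1 no sequence of the table lay inside the gene, or within 5000 bases of it.

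The fucosyltransferases had the lowest levels of the enzymes. Fut4 (ENSMUSG00000049307.6, chromosome 9, 14748459 to 14752122) had 322 and 285 counts in mock and 262 and 278 counts in exRNaseA libraries. Scaled to library size these were 13.7 and 13.8 CPM against 12.6 and 12.1 CPM, and both exRNaseA libraries lay below both mock libraries. The difference of -0.15 on the log2 scale was larger than the difference between replicates in either group (replicate 2 minus replicate 1, 0.01 in mock and -0.06 in exRNaseA). It did not pass the test before or after adjustment (SE 0.10, 95% interval -0.36 to 0.05, unadjusted p = 0.134, adjusted p = 0.862, edgeR). The share of all tested genes whose change was larger than both replicate differences was not counted. In the other 8 genes the change was smaller than at least 1 of the replicate differences.

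Fut7 (ENSMUSG00000036587.13, chromosome 2, 25422351 to 25426374) had 104 and 66 counts in mock and 100 and 83 counts in exRNaseA libraries. These gave 4.42 and 3.20 CPM in mock and 4.82 and 3.61 CPM in exRNaseA libraries, and the groups overlapped. Replicates differed by -0.47 on the log2 scale in mock and by -0.42 in exRNaseA libraries, more than the log2 change of 0.13 (SE 0.20, 95% interval -0.29 to 0.55, adjusted p = 0.953, edgeR).

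The spread of Fut7 was wider in TPM and its direction turned. The levels were 5.50 and 2.47 TPM in mock and 3.77 and 2.87 TPM in exRNaseA libraries, and limma on log2(TPM + 1) gave -0.14 with adjusted p = 0.970. The effective length was 1127 bases in mock replicate 1 and between 1823 and 1829 bases in the other 3 libraries, a ratio of 1.62. Among the 9398 genes compared for length, 1.83% had a ratio at least as large. The high TPM of mock replicate 1 therefore came with a short assigned length: its CPM was 1.38 times that of mock replicate 2, while its TPM was 2.23 times as high.

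**Figure D4:**
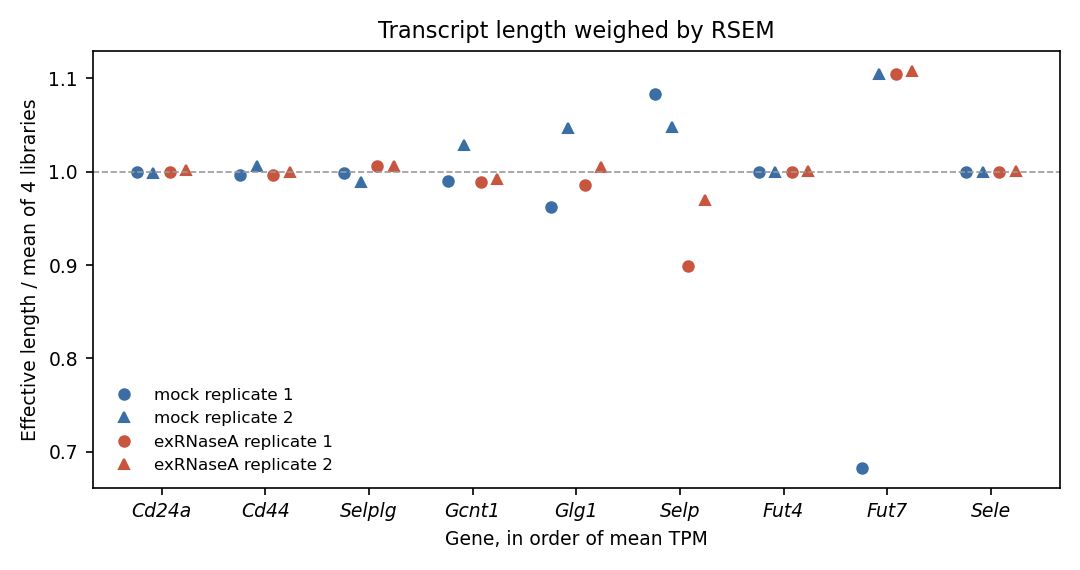
Effective length assigned by RSEM to each gene in each library, divided by the mean of the 4 libraries. Fut7 in mock replicate 1 (1127 bases) stands below the other 3 Fut7 points, both exRNaseA points of Selp lie below both mock points, and genes with 1 transcript (Fut4, Sele) stay at 1.

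Gcnt1 (ENSMUSG00000038843.18, chromosome 19, 17326141 to 17372844) was the most abundant of the 3 enzymes, at 52.0 and 47.8 TPM in mock and 53.6 and 52.6 TPM in exRNaseA libraries. In TPM both exRNaseA values were above both mock values. In CPM the groups overlapped, at 139.9 and 133.0 in mock and 141.6 and 137.0 in exRNaseA libraries. The log2 change was 0.03 (95% interval -0.05 to 0.10, adjusted p = 0.945, edgeR). A change beyond -3.16% or 7.32% lies outside its interval.

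The rest of the pathway that makes and uses selectin ligands was mostly expressed, and 0 of its genes were called. Of 99 genes in 6 lists 82 had a mean of 1 TPM or more, and 85 passed the filter on low counts. Of these 85, edgeR called 0, beside 0.0917% of all tested genes, and DESeq2 also called 0. An unadjusted p under 0.05 was found for 4 of the 85, beside 6.35% of all tested genes. Of 16 genes of fucose supply and transfer 13 were tested, with a median log2 change of 0.04. The fucosidases Fuca1 and Fuca2 led this list at 101.9 and 66.7 TPM. Fut8, which adds core fucose to N-glycans, had between 18.9 and 21.1 TPM, and Slc35c1, the GDP-fucose transporter, between 13.6 and 14.7 TPM. Fut9, another enzyme able to make Lewis x, had 0 counts in all 4 libraries. Pofut1, which fucosylates Notch receptors, had the smallest p (log2 change 0.10, adjusted p = 0.898, edgeR).

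Of 28 genes of O-glycan cores, lactosamine chains and sialic acid caps 26 were tested, with a median log2 change of -0.01. St3gal6, a sialyltransferase known to cap sialyl Lewis x on selectin ligands, led at 124.8 TPM, with St3gal4, which has the same role, between 40.8 and 43.9 TPM. B3gnt2, which extends lactosamine chains, had 75.4 TPM, and C1galt1, which makes the core 1 O-glycan, between 51.8 and 53.3 TPM. The other core 2 enzymes Gcnt3 and Gcnt4 had at most 1 and 2 counts in a library. Galnt6 had the smallest p (log2 change -0.23, adjusted p = 0.780, edgeR).

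Of 11 sulfation genes 7 were tested, with a median log2 change of 0.01. Tpst2, a transferase that sulfates the tyrosines of PSGL-1, had a mean of 41.02 TPM, and Tpst1, the other such enzyme, between 5.91 and 6.19 TPM. Slc35b3, a transporter of the sulfate donor, had 25.2 TPM, and Papss2, which makes that donor, had the smallest p (log2 change -0.44, adjusted p = 0.753, edgeR).

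Of 14 genes of other carriers and adhesion proteins 9 were tested, with a median log2 change of -0.02. The integrin chains Itgb2 and Itgam, which neutrophils use to arrest after rolling, had 737 and 697.9 TPM, and Itgam had the smallest p (log2 change -0.05, adjusted p = 0.751, edgeR). Madcam1 and Glycam1, selectin ligands of other tissues, had 0 counts in all 4 libraries.

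All 21 signalling genes and all 9 genes of the protease-related list were tested, with medians of -0.01 and 0.02. The adaptors Tyrobp and Fcer1g, which couple PSGL-1 to Syk, had means of 1606 and 756.7 TPM, and Fcer1g had the smallest p of all 6 lists (log2 change -0.11, adjusted p = 0.609, edgeR). Among proteases that can cut selectins or their ligands Mmp9 and Adam8 led at 1678 and 514.9 TPM, and Mmp14 had the smallest p (log2 change 0.36, adjusted p = 0.781, edgeR).

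**Figure D5:**
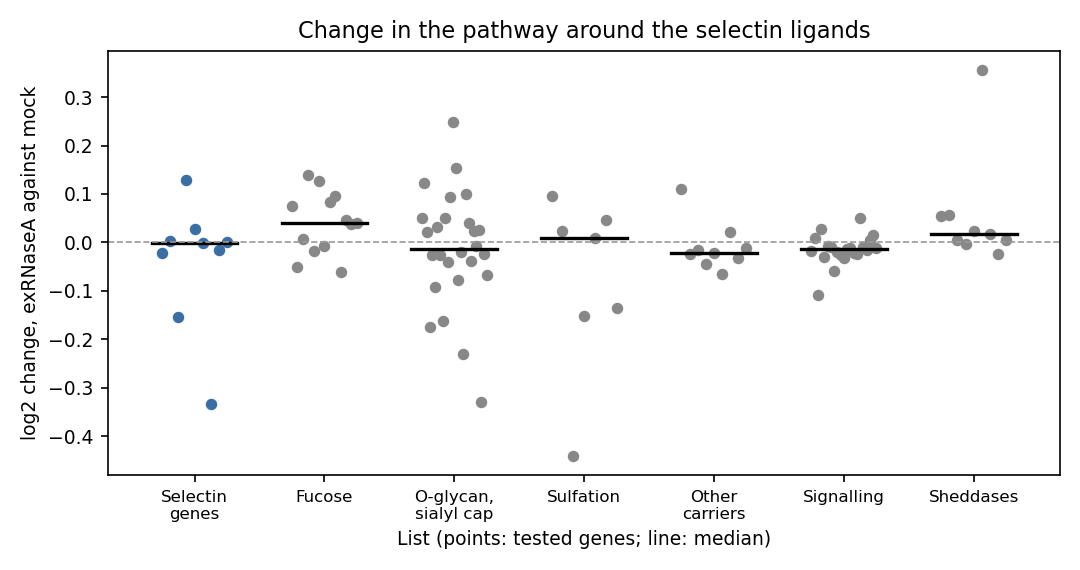
The log2 change in exRNaseA against mock libraries of each tested gene (points) of the 9 selectin-system genes and of 6 pathway lists, with the median of each list (line). All medians lie between -0.02 and 0.04, and 0 of the genes plotted were called by edgeR.

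The genes nearest to Selplg and Fut7 in level were named by the distance of log2(TPM + 1) over the 4 libraries. Nearest to Selplg were Jak1 (distance 0.034) and Ppp1cb (0.059), and nearest to Fut7 were Pygm (0.283) and Slc16a14 (0.303).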

How the data were processed

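The authors made the gene-level expected counts, TPM and FPKM with RSEM 1.3.3 after alignment by STAR 2.4.2a to mm10, per the submitters' processing notes. In the sources used here, annotation release and strand setting are not given. The small RNA table, deposited as RPM of each unique sequence, comes with no stated aligner or trimming. Its RPM values below a fixed limit of 1000 reads were whole multiples of 1 read (tolerance 0.01), so reads were derived from them, for intervals and floors only. Depth was 3110323 to 9922659 reads per small RNA library, of which 39.3% to 96.7% were in the table.

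Of 55536 genes 55450 had a symbol, and all 9 selectin-system genes were in RefSeq (GRCm38.p6), the source of gene positions. Expected counts were rounded. edgeR 4.0.16 (filterByExpr, TMM factors 0.993 to 1.01, quasi-likelihood F test, R 4.3.3) compared the groups across 14184 genes, with Benjamini-Hochberg adjustment at 0.05. The 95% intervals came from the F value. Alternatives used DESeq2 1.42.0, limma 3.58.1 and other scalings, filters and libraries. Effective lengths were compared without a test, since 2 against 2 libraries cannot go below p = 0.333 in an exact permutation test.

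The genes and lists were chosen with earlier results of these data known. Named were the 9 genes, in each pathway list the 2 most abundant and the gene with the smallest p, the 2 most abundant of each marker list, and for Selplg and Fut7 the 2 nearest genes. Fut8, Slc35c1, Fut9, St3gal4, C1galt1, Gcnt3, Gcnt4, Tpst1, Madcam1, Glycam1, Itga2b, Gp9, Cdh5, Kdr, Tek, Cldn5 and Ptprb were named after their values were seen. A gene that the rule names is not reported here.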

Additional observations from a re-analysis of the deposited data

Results flagged for a closer look

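The small RNA sequences placed in Cd24a were higher after WGA capture than in the input in neutrophils, and had hardly any reads in HOXB8 cells. In neutrophils they were 230.3 times as high after WGA as in the input (1.61 and 370.2 RPM in input and WGA). The 21 nt and 29 nt sequences had 0 reads in that input, and being listed may fix their part in this ratio. The 24 nt sequence alone gave 204.1. Nearly all reads of the 3 sequences lay in the neutrophil WGA library, so their low values elsewhere are not independent of their being listed. In HOXB8 cells they went from 3 reads (0.801 RPM) in the input to 0 reads after WGA. In differentiated HOXB8 cells they had 0 reads in both. This difference was not tested, since each group is 1 library, and 3 reads against 0 is within counting error, so HOXB8 cells give no direction of their own.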

How the results depend on the processing

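Of the 9 genes 0 were called under the alternatives run (DESeq2, 3 other scalings, 2 other filters, of which 10 CPM tested 7 of the 9 and left out Sele and Fut7, the replicate block, limma on TPM and FPKM, a threshold of 0.1, and each library left out), and of the pathway lists 0. The lowest adjusted p for a gene of the 9 was 0.568. The count of called genes among all tested was 13. It was 149 with no filter, 7 with 10 CPM or more in 2 libraries, 6 with limma on log2(TPM + 1), 8 on log2(TPM + 0.1) and 7 on log2(FPKM + 1), and between 9 and 74 with 1 library left out (74 without mock replicate 1, 59 without exRNaseA replicate 1, 29 without exRNaseA replicate 2). With the replicate number as a block it was 55; same-numbered libraries did not deviate together (correlation -0.03), so the numbers were not taken as pairs. The sign of a gene's log2 change turned in 31 of 124 alternative fits, 0 of them called; the cause was not tested. Under total count scaling the log2 change was 0.0030 for Selp, 0.018 for Selplg and 0.017 for Glg1. DESeq2 gave 0.0011 for Selplg and 6.4e-05 for Glg1, DESeq2 size factors in edgeR 0.00056 and the 10 CPM filter 0.00025 for Selplg. With limma on log2(TPM + 1), log2(TPM + 0.1) and log2(FPKM + 1), Selp had 0.20, 0.21 and 0.18, Glg1 0.044, 0.045 and 0.028 and Fut7 -0.14, -0.16 and -0.15, and on the first 2 scales Selplg had 0.015 and 0.016 and Cd24a 0.011 and 0.011. With 1 library left out the log2 change lay between -0.078 and 0.045 for Selp, -0.050 and 0.046 for Selplg and -0.0098 and 0.017 for Cd44. It lay between -0.058 and 0.016 for Cd24a, -0.016 and 0.015 for Glg1, -0.085 and 0.39 for Fut7 and -0.0075 and 0.066 for Gcnt1. Sele and Fut4 kept their sign in every fit. Their groups did not overlap in CPM or in TPM, so leaving out 1 library could not turn it, and no conclusion is drawn from this. The neutrophil WGA to input ratio of the Cd24a sequences was 230.3. It was 204.1 for the 24 nt sequence alone, 213.7 with the chromosome 14 sequence and 226.0 in shares of the table. These 3 alternatives were chosen after seeing the data. All of them hold the reads of the 24 nt sequence, so they are not independent of each other or of its being listed. The number of sequences placed in the 9 genes was 5, and 4 at 20 or more bases. Fewer than 50 counts per library limit Sele, and 66 to 104 counts limit Fut7.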
